A study of Mus musculus with 3 samples.

Results

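This account is about 10 genes of the machinery that senses nucleic acids and starts interferon production: Ddx58, Ifih1, Dhx58, Zbp1, Tlr3, Tlr7, Tmem173, Mavs, Irf3 and Trex1. They were taken by name, and 9 of the 10 have a row in both deposited RNA tables, among 19208 genes in the table of metastasis-bearing brains and 17453 genes in the table of naive brains. Trex1, a nuclease that degrades cytosolic DNA, is not analysed here.

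The brains came from Cx3cr1-/- (homozygous) and Cx3cr1+/- (heterozygous) mice, so that every animal carried at least 1 disrupted allele of Cx3cr1, the fractalkine receptor of microglia and monocytes, and no group had 2 intact alleles. All mice were females of 2 to 3 months on a C57Bl/6 background. There were 2 homozygous and 2 heterozygous brains with metastases, taken about 2 weeks after E0771 cells, a mouse mammary tumour line, were injected into the carotid artery, and 2 homozygous and 2 heterozygous brains labelled naive. Each brain, 1 hemisphere of it, was a suspension enriched for immune cells on Percoll that carried its own hashtag antibody, and the 8 brains were pooled for 1 single-cell capture. The brain is the replicate throughout.

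Cells meet foreign or misplaced nucleic acid with several sensors. RIG-I (the product of Ddx58) and MDA5 (Ifih1) bind double-stranded RNA in the cytosol and signal through the mitochondrial adaptor MAVS, TLR3 and TLR7 read RNA inside endosomes, and STING (Tmem173) relays the signal that cGAS sends when it meets cytosolic DNA. These routes activate interferon regulatory factors, IRF3 among them, which switch on type I interferon genes, and interferon in turn raises the transcription of many antiviral genes, including those of several sensors. Microglia, the resident macrophages of the brain, are known to use these routes in viral infection and in response to self nucleic acid.

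The tables held 13455 cells. As 1138 cell barcodes stood in both tables, those cells were left out, and 11179 remained, of which 8443 were from metastasis-bearing and 2736 from naive brains. The metastasis-bearing brains differed in makeup, since a Krt8-high cluster made up 55.7% and 42.1% of the cells of the homozygous brains, against 17.1% and 8.31% in the heterozygous brains. The naive table held a Krt8-high cluster too, with 3.26% and 6.63% of the cells of the homozygous brains, against 4.60% and 3.91% in the heterozygous brains, although these brains are labelled naive, and the part of the pooled capture in this was not tested. The authors' clusters were named from marker genes, with the suffix "-like". The microglia-like clusters, led by genes such as P2ry12, Fcrls, Gpr34 and Tmem119, held 85 and 35 cells of the homozygous metastasis-bearing brains and 390 and 144 cells of the heterozygous ones, and 147 and 365 cells of the homozygous naive brains and 495 and 227 cells of the heterozygous ones. The median raw count of UMIs, which stand for captured RNA molecules, per microglia-like cell was 12596 and 8335 in the homozygous metastasis-bearing brains, 7850.5 and 8928.5 in the heterozygous ones, and between 6884 and 7522 in the naive brains. Levels here are CPM, the depth-corrected UMIs of a gene summed over the cells of a class in a brain and scaled to a total of 1000000. In microglia-like cells, Cx3cr1 itself stood at 114 and 31.6 CPM in the homozygous metastasis-bearing brains, against 1363 and 1464 CPM in the heterozygous ones, and at 75.6 and 71.4 CPM in the homozygous naive brains, against 1953 and 1852 CPM in the heterozygous ones, in the direction of the labels.

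The first question was which cells of the metastasis-bearing brains held transcripts of each sensor. The levels fell into 3 patterns over 8 named classes with at least 20 cells in a brain. Ifih1, Dhx58 and Zbp1 were highest in monocyte/macrophage-like cells, and Tmem173, Tlr3 and Tlr7 were highest in microglia-like cells. Irf3 was highest in vascular-like cells, which overlapped microglia-like cells. With the shared barcodes kept, choroid plexus-like cells reached 20 cells in a brain and stood above microglia-like cells for Tlr3. These are descriptions with no test, because the clusters were built from the same cells' genes.

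Among the cytosolic RNA sensors, Ddx58 averaged 94.1 ± 29.9 CPM in monocyte/macrophage-like cells (SD, n = 4 brains) and 39.5 ± 18.2 CPM in microglia-like cells (SD, n = 4). Neutrophil-like, T-like, NK-like and vascular-like cells lay between those levels, at means of 56.4 to 90.0 CPM, and each class overlapped the next in this order. Krt8-high cells stood lowest for Ddx58, with 25.7 ± 9.87 CPM (SD, n = 4). Ifih1 was at 133 ± 28.5 CPM in monocyte/macrophage-like cells, and every brain there lay above every brain of the next class, vascular-like cells, at 56.8 ± 14.1 CPM (SD, n = 4 each). Microglia-like cells had 45.9 ± 26.1 CPM of Ifih1 and Krt8-high cells 9.18 ± 4.53 CPM (SD, n = 4 each). Dhx58 encodes LGP2, a relative of RIG-I and MDA5 that lacks their signalling domains and modulates them. It was at 73.2 ± 15.1 CPM in monocyte/macrophage-like cells, apart from all brains of the next class, T-like cells, with 28.9 ± 7.14 CPM (SD, n = 4 each). The microglia-like mean for Dhx58 was 27.2 ± 15.3 CPM (SD, n = 4), within the range of the T-like brains.

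Zbp1 encodes a sensor of left-handed (Z-form) nucleic acid that can trigger necroptosis. Its levels made a clear order at the top, with 311 ± 53.9 CPM in monocyte/macrophage-like, 205 ± 17.97 CPM in T-like and 120 ± 46.9 CPM in NK-like cells (SD, n = 4 each), and no overlap of brains between the first and the second or between the second and the third. Microglia-like cells, at 51.3 ± 28.4 CPM, did not differ from vascular-like cells, at 53.1 ± 19.9 CPM, beyond the spread between brains (SD, n = 4 each).

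The endosomal receptors and STING were distributed differently. Tlr7, the receptor for single-stranded RNA, was at 90.8 ± 17.2 CPM in microglia-like cells and 58.9 ± 12.9 CPM in monocyte/macrophage-like cells (SD, n = 4 each), with every microglia-like value above every monocyte/macrophage-like value. No T-like, NK-like, vascular-like or Krt8-high value of Tlr7 was above 6.98 CPM. Tlr3, the receptor for double-stranded RNA, was at 43.9 ± 10.95 CPM in microglia-like, 27.3 ± 12.99 CPM in vascular-like and 14.99 ± 5.09 CPM in monocyte/macrophage-like cells (SD, n = 4 each), and neighbours in this order overlapped. Both receptors were close to 0 in Krt8-high cells, with means of 0.631 CPM for Tlr3 and 0.116 CPM for Tlr7. Tmem173 was at 174 ± 12.4 CPM in microglia-like cells, above all brains of the monocyte/macrophage-like class, which had 70.5 ± 19.4 CPM, and it was lower again in T-like cells, at 46.6 ± 1.82 CPM (SD, n = 4 each).

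The shared signalling genes were Irf3 and Mavs. Irf3, the transcription factor downstream of MAVS, STING and the TLR3 adaptor TRIF, ranged over the 8 classes from 17.3 ± 3.38 CPM in Krt8-high cells to 34.2 ± 2.57 CPM in vascular-like cells (SD, n = 4 each), and neighbours in that order overlapped throughout. Every vascular-like value, at 31.3 CPM or more, lay above every value of the classes other than microglia-like, at 29.6 CPM or less. Mavs had few transcripts, with means of 0.990 to 12.4 CPM, so that its order between classes is poorly resolved.

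**Figure D1:**
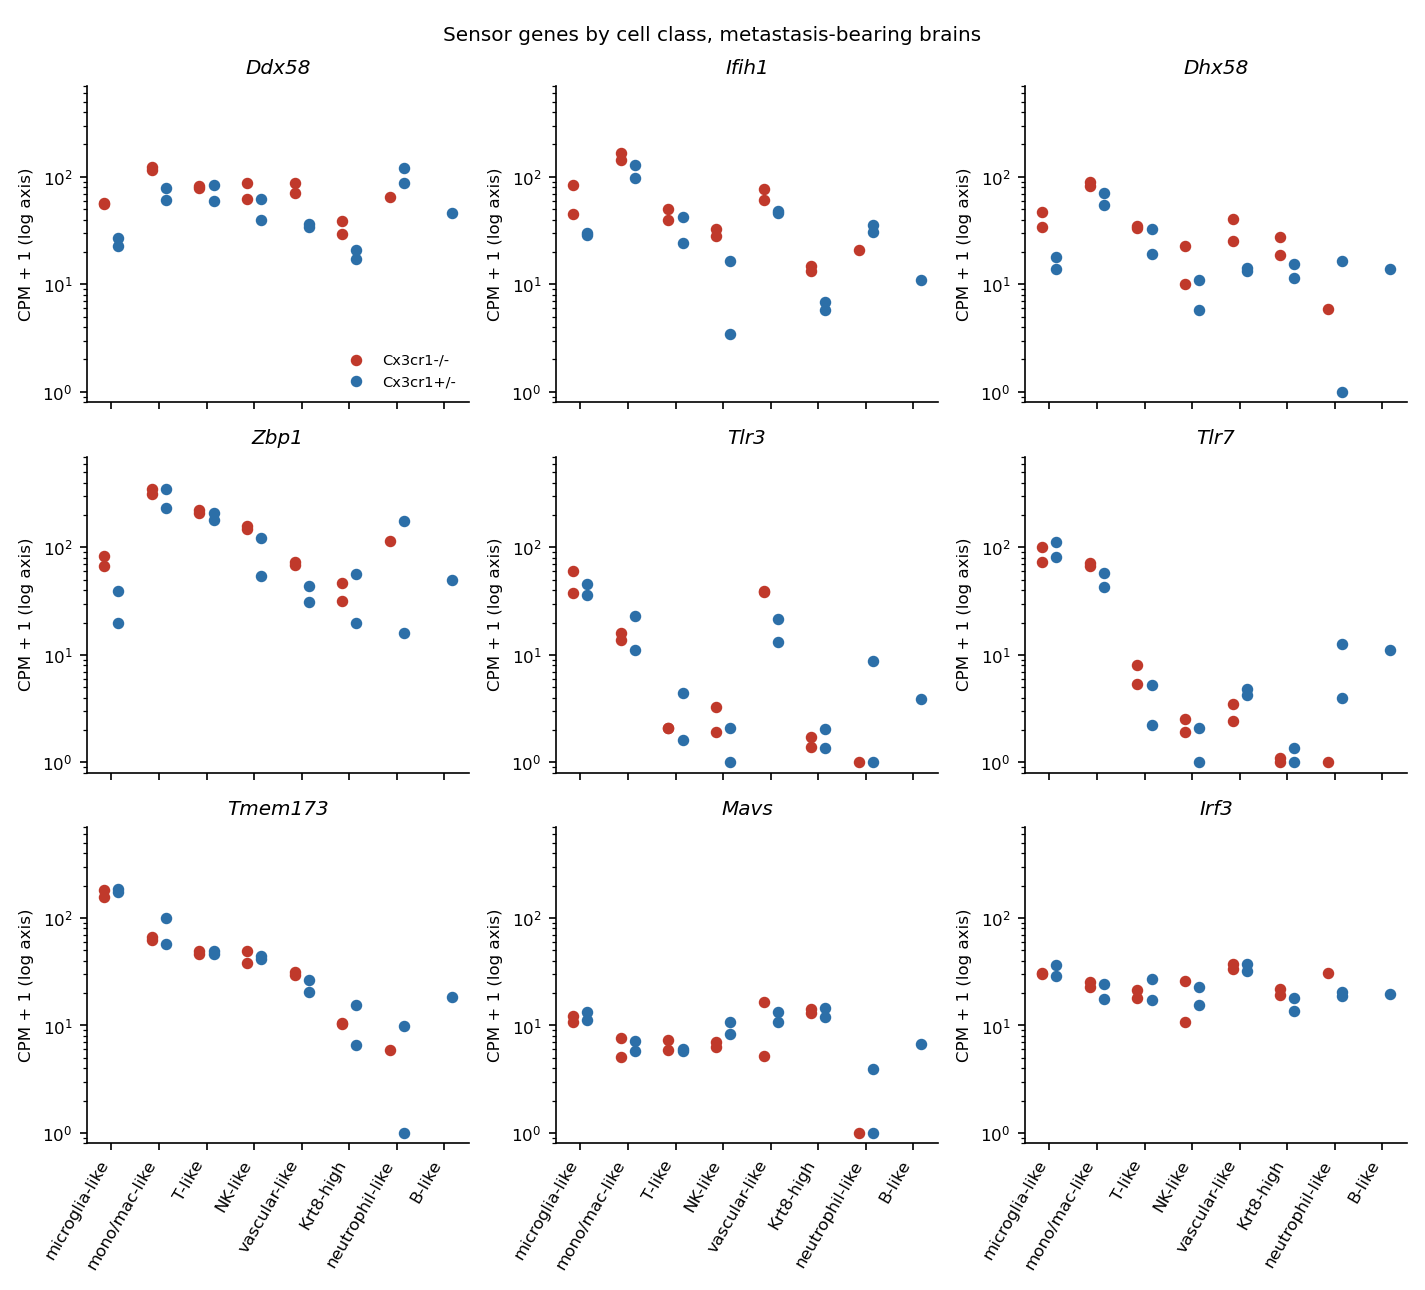
Level of 9 sensor genes in metastasis-bearing brains (CPM + 1, log axis) by cell class, 1 point per brain with at least 20 cells, homozygous in red and heterozygous in blue. Ifih1, Dhx58 and Zbp1 are highest in monocyte/macrophage-like (mono/mac-like) cells, Tlr3, Tlr7 and Tmem173 are highest in microglia-like cells, and Irf3 is highest in vascular-like cells.

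Over the 32 sums of a class and a brain in these brains, the pairwise Pearson r of log2(CPM + 10) was 0.75 between Ifih1 and Dhx58, 0.73 between Ddx58 and Zbp1, 0.72 between Tmem173 and Tlr7 and 0.69 between Tlr3 and Tlr7. It was 0.03 between Zbp1 and Tlr3 and -0.24 between Zbp1 and Irf3. The sums cover the 8 named classes and an unnamed cluster of few UMIs, and the points share a pooled library and 4 brains, so these are descriptions.
Among 8159 genes with a mean above 10 CPM, the 3 genes most like each sensor over the same 32 sums were then listed. They were Irf7, Rtp4 and Ifi35 for Ddx58 (r of 0.82, 0.79 and 0.78), Slfn5, Znfx1 and Gltp for Ifih1 (0.87, 0.85 and 0.85), Phf11d, Ifi211 and Tmem106a for Dhx58 (0.84, 0.82 and 0.81), and Ifi47, Nmi and Ly6c2 for Zbp1 (0.89, 0.84 and 0.83).
The genes most like Tlr7 were Slc7a8, Adgre1 and Spint1 (0.96, 0.95 and 0.95), those most like Tlr3 were Rnase4, Pros1 and F11r (0.94 each), and those most like Tmem173 were Commd8, Atp6v0a2 and Rps6ka1 (0.93, 0.90 and 0.89). For Irf3 they were Taok1, Atp2c1 and Dock4 (0.78, 0.77 and 0.75). Mavs was below the 10 CPM mean over these sums and has no such list.

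The main comparison set Cx3cr1-/- against Cx3cr1+/- microglia-like cells in metastasis-bearing brains. The 3 cytosolic RNA sensors and Zbp1 were each higher in both homozygous brains than in either heterozygous brain, while the endosomal receptors, the 2 adaptors and Irf3 overlapped between the genotypes. None of the 9 members passed the test over all genes.

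Ddx58 had 54.4 and 55.8 CPM in the homozygous brains, against 21.8 and 25.8 CPM in the heterozygous brains, a log2 fold change of 0.95 (SE 0.19, adjusted p = 0.203, limma with Benjamini-Hochberg adjustment over all genes). Both homozygous values were above 50 CPM and close to each other, and the groups did not overlap. Ifih1 had 83.5 and 43.7 CPM in the homozygous brains, against 28.8 and 27.6 CPM in the heterozygous brains (log2 fold change 0.89, SE 0.27, adjusted p = 0.445). The homozygous brains lay apart from each other for Ifih1, and the first of them was the highest of the 4. Dhx58 had 32.8 and 46.1 CPM in the homozygous brains, against 12.8 and 17.02 CPM in the heterozygous brains (log2 fold change 0.98, SE 0.23, adjusted p = 0.314). Zbp1 had 65.7 and 82.5 CPM in the homozygous brains, against 18.7 and 38.1 CPM in the heterozygous brains (log2 fold change 1.17, SE 0.27, adjusted p = 0.307). For both genes the groups did not overlap, and of these 4 genes Zbp1 had the widest gap between the heterozygous brains.

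Tmem173 had 157 and 180 CPM in the homozygous brains, against 174 and 185 CPM in the heterozygous brains, a log2 fold change of -0.09 (SE 0.15, adjusted p = 0.876). Tlr7 had 99.5 and 72.8 CPM in the homozygous brains, against 110 and 80.4 CPM in the heterozygous brains (log2 fold change -0.13, SE 0.21). Both genes had overlapping groups. Tlr3 had 59.1 and 36.4 CPM in the homozygous brains, against 35.4 and 44.6 CPM in the heterozygous brains (log2 fold change 0.19, SE 0.24). Irf3 had 30.0 and 29.1 CPM in the homozygous brains, against 35.9 and 27.6 CPM in the heterozygous brains, and Mavs had 11.3 and 9.71 CPM, against 10.3 and 12.3 CPM. Every one of these groups overlapped.

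Of the 9 members, 0 passed an adjusted p of 0.05 in limma, where 0.0814% of the 7374 genes tested passed. At an unadjusted p of 0.05, 4 of the 9 were higher in homozygous brains, against 4.87% of all genes. Both homozygous brains lay above both heterozygous brains for 4 of the 9, against 21.6% of all genes, and below for 0, against 19.0%. The median log2 fold change of the 9 was 0.19, and that of all genes was 0.01.
Leaving out single brains moved these values. Without the first homozygous brain Dhx58 passed (log2 fold change 1.18, adjusted p = 0.0495), without the second homozygous brain Ifih1 passed (1.29, adjusted p = 0.0166), and without the second heterozygous brain Zbp1 passed (1.54, adjusted p = 0.00182), with a lone brain then assumed to vary like the pair. In those 3 fits 88, 62 and 79 of all genes passed (1.21%, 0.837% and 1.07%), against 6 with all brains. Over the 13 alternatives, the adjusted p ranged from 0.0495 to 0.999 for Dhx58, from 0.0166 to 0.919 for Ifih1, from 0.00182 to 0.999 for Zbp1 and from 0.0606 to 0.975 for Ddx58. Without the first homozygous brain, Ifih1 was at 0.49.

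Marker genes of other cell classes were also unequal in these sums, and neither the origin of that RNA nor its part in the members' values was tested. The 9 monocyte/macrophage markers summed to 688 and 828 CPM in the homozygous microglia-like cells, against 441 and 601 CPM in the heterozygous ones, with none of the 9 at 0 in 3 of the brains and 2 at 0 in the second homozygous brain. Within monocyte/macrophage-like cells the same markers summed to 20114 and 22585 CPM in homozygous brains, against 18330 and 18154 CPM in heterozygous brains. The 5 NK cell markers summed to 235 and 121 CPM in the homozygous microglia-like cells, against 6.16 and 92.7 CPM in the heterozygous ones, where 2 of the 5 were at 0 in the first brain. The 9 dendritic cell markers stood the other way, at 903 and 743 CPM in the homozygous microglia-like cells, against 1197 and 1174 CPM in the heterozygous ones, and so did the 9 microglia markers, at 14294 and 13070 CPM, against 15030 and 15342 CPM. The rest of the 15 marker lists are not given here for these cells. In microglia-like cells with no UMI of 13 infiltrating-cell markers, a choice made after seeing the data that left 40 and 18 homozygous cells and 267 and 78 heterozygous cells, the log2 fold changes were 0.78 for Ddx58, 0.88 for Zbp1, 0.51 for Ifih1 and 0.40 for Dhx58. In cells with 5000 to 15000 raw UMIs, Ifih1 was at 0.21, and Ddx58, Zbp1 and Dhx58 were at 0.86, 0.83 and 0.77.

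**Figure D2:**
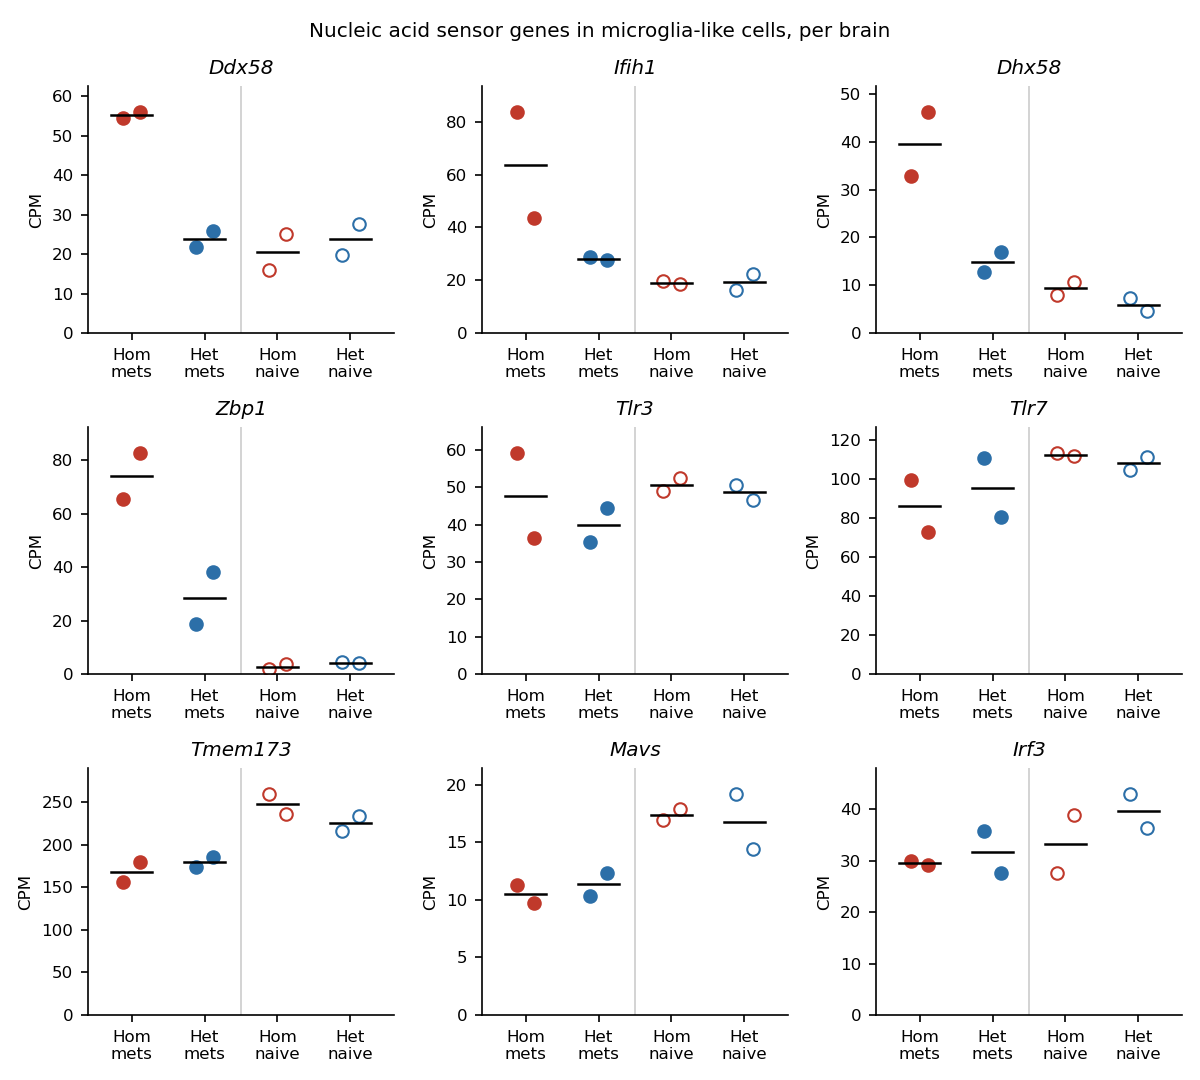
Level of 9 sensor genes in microglia-like cells (CPM, linear axis from 0), 1 point per brain, with a line at the mean of each pair; Hom is Cx3cr1-/-, Het is Cx3cr1+/-, mets is metastasis-bearing. Ddx58, Ifih1, Dhx58 and Zbp1 are higher in both homozygous metastasis-bearing brains than in the heterozygous ones (for Ddx58, 54.4 and 55.8 CPM against 21.8 and 25.8 CPM). In naive brains the genotypes overlap for Ddx58 and Ifih1, and Dhx58 and Zbp1 are low in both.

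Promoter sequence was set beside these members because interferon-stimulated genes are known for a shared promoter element. The core letters of the interferon-stimulated response element, GAAA followed by any 2 bases and again GAAA, a choice made after the values were seen, were searched on both strands, overlapping matches included, in RefSeq windows (build GRCm38.p6) that run from 250 bases before to 50 bases after each gene start. The letters stood in 1131 of all 32851 windows (3.44%). Of the members, 6 were searched, and Ddx58 and Ifih1 hold the letters. The windows of Mavs, Irf3, Tlr3 and Trex1 do not, and Dhx58, Zbp1, Tmem173 and Tlr7 were not searched. Among interferon-stimulated genes chosen for comparison, 6 of 9 with a window hold them, and among the other sensing genes 4 of 27. Those 4 are Eif2ak2, Ddx60, Myd88 and Ripk1, and the last 2 were lower in both homozygous metastasis-bearing brains in microglia-like cells. The windows of Ifit2, Oasl1 and Irf7, which were higher there, do not hold the letters. The 3 further genes printed below were all higher there, and whether the letters go with the direction was not tested. The 30 bases around the match are printed 5′ to 3′ on the gene's strand with the matched letters in capitals, for the 2 members and for 3 further genes named below, so that the element can be compared. The printed stretch of Ddx58 is chr4:40239804-40239833 on the minus strand, and its letters match on the opposite strand, from base 3 after the gene start. That of Ifih1 is chr2:62646206-62646235 on the minus strand, matched on the gene's own strand from base 33. That of Rsad2 is chr12:26456553-26456582 on the minus strand, matched on the opposite strand from base -120. That of Cxcl10 is chr5:92349083-92349112 on the minus strand, matched on its own strand from base -213. That of Eif2ak2 is chr17:78882535-78882564 on the minus strand, matched on its own strand from base 19. A match is a description of the letters, not a site of binding.
Ddx58: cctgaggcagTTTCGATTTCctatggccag
Ifih1: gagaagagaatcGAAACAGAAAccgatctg
Rsad2: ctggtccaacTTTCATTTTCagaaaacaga
Cxcl10: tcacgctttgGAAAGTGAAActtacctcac
Eif2ak2: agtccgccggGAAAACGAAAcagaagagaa

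The same comparison was made for genes around the members. Of 29 other nucleic acid sensing genes, which stand under 30 symbols because cGAS was listed under both its symbols, 24 were tested in metastasis-bearing brains, again in microglia-like cells, 0 passed the adjusted threshold in limma, and 5 had an unadjusted p under 0.05, 3 of them higher in homozygous brains. Over all 7374 genes, 635 had an unadjusted p under 0.05, 359 of them higher in homozygous brains. The median log2 fold change of the 24 was 0.04. Irf7, the interferon regulatory factor that amplifies interferon production, averaged 122 ± 22.0 CPM in homozygous and 49.1 ± 11.9 CPM in heterozygous brains (SD, n = 2 each; log2 fold change 1.17, adjusted p = 0.153). Eif2ak2, the kinase PKR that halts translation on double-stranded RNA, averaged 90.8 ± 8.26 CPM and 56.8 ± 6.86 CPM in homozygous and heterozygous brains (SD, n = 2 each; 0.60, adjusted p = 0.423). Trim25, a ubiquitin ligase of the RIG-I route, had a log2 fold change of 0.66 (adjusted p = 0.451). Others lay the other way, namely Irf1 at -0.67 (adjusted p = 0.488), Ripk1, a kinase of cell death signalling, at -0.53 (adjusted p = 0.528) and Myd88, the adaptor of TLR7, at -0.45 (adjusted p = 0.582).

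The interferon-stimulated genes were a list chosen with results of these libraries known, and so are no independent evidence of direction. Their log2 fold changes were positive in 12 of 12, against 3805 of all 7374 genes, with a median of 1.39. Of the 12, 3 passed, against 6 of all genes. Rsad2, an antiviral enzyme, averaged 199 ± 13.6 CPM in homozygous and 19.4 ± 3.22 CPM in heterozygous brains (SD, n = 2 each; log2 fold change 2.83, adjusted p = 0.00244). Ifit2 was higher by 2.23 and Cxcl10, a chemokine for T cells, by 1.81 (adjusted p = 0.0165 each). Of 13 alternatives, Rsad2 passed in 10 and Ifit2 and Cxcl10 in 6 each. All 3 passed with any 1 brain left out, but none of the 3 passed in cells of 5000 to 15000 raw UMIs (1.52, 1.57 and 1.94 for Rsad2, Ifit2 and Cxcl10, adjusted p = 0.866 each) or in cells with no UMI of the infiltrating-cell markers (1.45, 2.07 and 1.54, adjusted p = 0.567, 0.208 and 0.522). Oasl1, Ifit3 and Isg15 had log2 fold changes of 1.72, 1.79 and 1.35 and did not pass (adjusted p = 0.0614, 0.0614 and 0.0630). The log2 fold changes of Ddx58, Ifih1, Dhx58 and Zbp1 all lay between 0.89 and 1.17, below the median of that list.

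**Figure D3:**
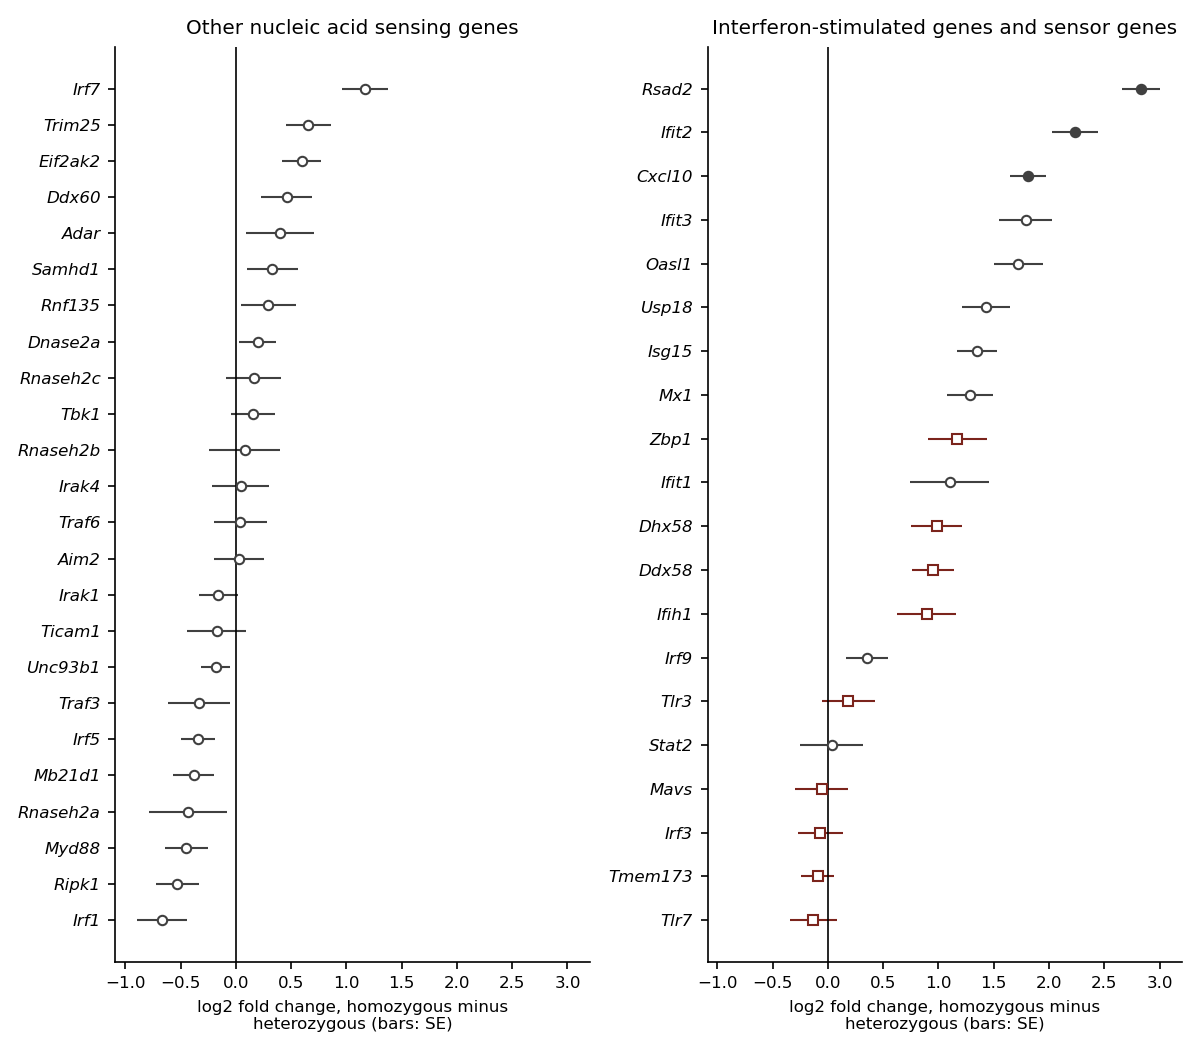
Log2 fold change of homozygous minus heterozygous metastasis-bearing brains in microglia-like cells, with bars for the SE, for 24 other nucleic acid sensing genes (left) and for 11 interferon-stimulated genes with the 9 sensor genes as squares (right). Filled symbols passed an adjusted p of 0.05, and Rsad2, Ifit2 and Cxcl10 are the only filled ones.

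The next question was whether naive microglia-like cells differed by genotype in the same genes. Ddx58 had 16.0 and 25.0 CPM in the homozygous naive brains, against 19.7 and 27.7 CPM in the heterozygous naive brains (log2 fold change -0.15, SE 0.18, adjusted p = 0.893 in limma). Ifih1 had 19.6 and 18.6 CPM in the homozygous naive brains, against 16.4 and 22.5 CPM in the heterozygous ones (-0.01, SE 0.17). The groups overlapped for both sensors. Zbp1 was nearly absent, with 1.78 and 3.57 CPM in the homozygous naive brains, against 4.31 and 4.04 CPM in the heterozygous ones, and Dhx58 had 8.01 and 10.7 CPM, against 7.28 and 4.61 CPM. Zbp1 was lower and Dhx58 higher in both homozygous naive brains than in the heterozygous ones, but both genes were under the mean of 10 CPM that the test required. The Zbp1 values rest on 2 and 10 corrected UMIs in homozygous brains and 16 and 7 in heterozygous brains.
Tmem173 had 259 and 236 CPM in the homozygous naive brains, against 216 and 234 CPM in the heterozygous ones (log2 fold change 0.13, SE 0.09, adjusted p = 0.758), and Tlr7 had 113 and 112 CPM, against 105 and 111 CPM (0.05, SE 0.10). These 2 of the 7 members tested did not overlap and were higher in homozygous brains, against 23.4% of the 7693 genes tested. Tlr3, Mavs and Irf3 had log2 fold changes of 0.05, 0.04 and -0.21. In limma 0 of 7 members passed, where 0.572% of all genes passed, and 0 of 7 had an unadjusted p under 0.05, against 8.51% of all genes.
Of the other sensing genes 23 were tested in naive microglia-like cells, of which 0 passed and 3 had an unadjusted p under 0.05, and of the interferon-stimulated genes 5 were tested, of which 0 passed and 1 had an unadjusted p under 0.05. By p the first were Traf3, an adaptor of interferon induction, at a log2 fold change of 0.52 (adjusted p = 0.248) and Dnase2a, a lysosomal DNase, at -0.31 (adjusted p = 0.288). Irf7 was at -0.46, Eif2ak2 at 0.31 and Adar, an editor of double-stranded RNA, at 0.33.

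Levels of the 2 states are given side by side and were not tested, as the tables were corrected for depth separately. Ddx58 in metastasis-bearing heterozygous microglia-like cells, at 21.8 and 25.8 CPM, lay within the range of the 4 naive brains, from 16.0 to 27.7 CPM. Zbp1 was higher in every metastasis-bearing brain, at 18.7 CPM or more, than in any naive brain, at 4.31 CPM or less, and Ifih1, at 27.6 CPM or more, was above the naive maximum of 22.5 CPM. Tmem173 and Mavs lay lower in every metastasis-bearing brain than in every naive brain, with at most 185 CPM against at least 216 CPM for Tmem173 and at most 12.3 CPM against at least 14.4 CPM for Mavs. The 5 NK cell markers in naive microglia-like cells summed to between 4.45 and 7.14 CPM, and the monocyte/macrophage markers to between 326 and 459 CPM.

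The difference between the genotype effects of the 2 states was tested directly. It was 1.10 on the log2 scale for Ddx58 (SE 0.28, adjusted p = 0.398 in limma) and 0.90 for Ifih1 (SE 0.33, adjusted p = 0.569), with the larger effect in metastasis-bearing brains for both. For Tmem173 it was -0.22, for Tlr7 -0.19, for Irf3 0.14, for Tlr3 0.14 and for Mavs -0.09. Of the 7 members tested 0 passed, where 0.0142% of 7065 genes passed, and 2 of 7 had an unadjusted p under 0.05 with a positive difference, against 2.99% of all genes. Without the first homozygous metastasis-bearing brain Ddx58 passed (1.11, adjusted p = 0.0320), and without the second both Ddx58 (1.08, adjusted p = 0.0495) and Ifih1 (1.30, adjusted p = 0.00933) passed, but in those fits 313 and 173 of all genes passed, against 1 with all brains. The adjusted p ranged from 0.0320 to 1.00 for Ddx58 and from 0.00933 to 1.00 for Ifih1 over 15 alternatives. Cxcl10 was the 1 gene that passed with all 8 brains, at 1.85 (SE 0.24, adjusted p = 0.0406), and it did not pass without any 1 of the 4 naive brains (1.60 to 2.09, adjusted p from 0.0578 to 0.572) or without the first heterozygous metastasis-bearing brain (1.63, adjusted p = 0.0574).
Irf7 was the next gene of the sensing list, at 1.63 (SE 0.34, adjusted p = 0.297). In naive brains it averaged 8.02 ± 1.28 CPM in homozygous and 15.5 ± 9.02 CPM in heterozygous brains (SD, n = 2 each), so its homozygous brains stood below the heterozygous ones there and above them in metastasis-bearing brains. Isg15 was at 1.21, Dnase2a at 0.51, Irf5 at -0.51 and Traf3 at -0.86, and none of them passed. In all, 0 of 23 other sensing genes and 1 of 5 interferon-stimulated genes passed.

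Monocyte/macrophage-like cells, with the highest levels of Ifih1, Dhx58 and Zbp1, were compared next in metastasis-bearing brains. Ddx58 had 123 and 115 CPM in the homozygous brains, against 77.8 and 60.4 CPM in the heterozygous brains (log2 fold change 0.71, SE 0.14, adjusted p = 0.228 in limma). Ifih1 had 164 and 142 CPM, against 128 and 96.1 CPM, in homozygous and heterozygous brains (0.42, SE 0.16, adjusted p = 0.545). Dhx58 had 81.8 and 87.9 CPM in the homozygous brains, against 53.8 and 69.5 CPM in the heterozygous ones (0.41, SE 0.14, adjusted p = 0.501). Each of these 3 RNA sensors was higher in both homozygous brains. Tlr7 had 71.3 and 65.7 CPM in the homozygous brains, against 57.0 and 41.7 CPM in the heterozygous brains (0.42, SE 0.15, adjusted p = 0.532), also without overlap. Zbp1 had 315 and 348 CPM in the homozygous brains, against 233 and 348 CPM in the heterozygous ones (0.21, SE 0.19), and Tmem173 had 61.5 and 65.3 CPM, against 56.2 and 99.1 CPM (-0.21, SE 0.22). Zbp1 and Tmem173 overlapped, as 1 heterozygous brain reached or passed the homozygous values.

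Of 8 members tested in these cells 0 passed, where 0.0143% of 6980 genes passed. At an unadjusted p of 0.05, 4 of 8 were higher in homozygous brains, against 5.09% of all genes, and 4 of 8 did not overlap and were higher in homozygous brains, against 21.4% of all genes. Without the first heterozygous brain Ddx58 passed (0.87, adjusted p = 0.00878), and without the second both Ddx58 (0.56, adjusted p = 0.0456) and Dhx58 (0.57, adjusted p = 0.0470) passed, where 148 and 230 of all genes passed. Over 11 alternatives, the adjusted p ranged from 0.00878 to 0.726 for Ddx58 and from 0.0470 to 1.00 for Dhx58. The NK cell markers summed to 205 and 226 CPM in the homozygous monocyte/macrophage-like cells, against 70.6 and 83.1 CPM in the heterozygous ones, with none of the 5 at 0. The 9 dendritic cell markers summed to 228 and 289 CPM in the homozygous brains, against 399 and 481 CPM in the heterozygous ones, with none at 0. The 5 neutrophil markers were at 353 and 3488 CPM in the homozygous brains, against 714 and 378 CPM in the heterozygous ones, so that the second homozygous brain stood apart. In all, 8 of 15 marker lists did not overlap between the genotypes, 4 of them higher and 4 lower in homozygous brains, and their part in these values was not tested.
Around the members, 0 of 25 other sensing genes passed in monocyte/macrophage-like cells (4 with an unadjusted p under 0.05, median log2 fold change 0.08), and 0 of 12 interferon-stimulated genes passed (9 with an unadjusted p under 0.05, median 0.70). Over all 6980 genes, 535 had an unadjusted p under 0.05, and the median log2 fold change was 0.01. The interferon-stimulated genes first by p were Ifit2 at 0.81 (adjusted p = 0.159), Usp18 at 0.83, Ifit3 at 1.26, Isg15 at 0.70, Ifit1 at 1.01 and Rsad2 at 0.91, and each of the 6 was higher in both homozygous brains.

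The remaining 4 classes with at least 20 cells in each metastasis-bearing brain gave 25 pairs of a member and a class, 22 of them with a positive log2 fold change, and 0 passed in limma. The positive ones were 5 of 5 members in Krt8-high cells, against 42.7% of all genes, 5 of 6 in T-like cells, against 55.3%, 5 of 6 in NK-like cells, against 43.9%, and 7 of 8 in vascular-like cells, against 51.2%. In vascular-like cells, which hold endothelial and mural cells, Ddx58 had 87.3 and 69.8 CPM in the homozygous brains, against 35.2 and 33.4 CPM in the heterozygous brains (log2 fold change 0.99, SE 0.18, adjusted p = 0.211). Tlr3 had 37.8 and 38.5 CPM in the homozygous brains, against 20.6 and 12.2 CPM in the heterozygous ones (0.88, SE 0.23, adjusted p = 0.316). Dhx58 had 24.3 and 39.9 CPM in the homozygous brains, against 12.5 and 13.04 CPM in the heterozygous ones (0.86, SE 0.25, adjusted p = 0.357). All 3 were higher in both homozygous brains. So were Zbp1, Ifih1 and Tmem173, at 0.79, 0.47 and 0.29, which makes 6 of 8 members tested, against 23.4% of 8896 genes. At an unadjusted p of 0.05, 5 of 8 were higher in homozygous brains, against 6.4% of all genes, and 0.0% of all genes passed the adjusted threshold. The 9 microglia markers summed to 3112 and 2500 CPM in the homozygous vascular-like cells, against 1559 and 1659 CPM in the heterozygous ones, with 1 marker at 0 in the second homozygous brain and none in the others. The 7 mural or stromal markers stood at 2949 and 2976 CPM in the homozygous vascular-like cells, against 4428 and 4116 CPM in the heterozygous ones, with none at 0. The 4 cycling markers were at 343 and 285 CPM, against 139 and 113 CPM, and the 9 monocyte/macrophage markers at 207 and 191 CPM, against 344 and 390 CPM, in homozygous and heterozygous brains. The 5 endothelial markers overlapped, at 10340 and 7311 CPM in the homozygous brains, against 7038 and 8326 CPM in the heterozygous ones. In all, 9 of 15 marker lists did not overlap between the genotypes in this class, 6 of them higher in homozygous brains, and their part in the members' values was not tested.

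In Krt8-high cells, Ddx58 had 28.6 and 38.3 CPM in the homozygous brains, against 16.2 and 19.7 CPM in the heterozygous brains (log2 fold change 0.63, SE 0.16, adjusted p = 0.746). Dhx58 had 17.8 and 26.4 CPM in the homozygous brains, against 10.3 and 14.6 CPM in the heterozygous ones (0.51, SE 0.17, adjusted p = 0.787). With Irf3 at 0.25, 3 of the 5 members tested did not overlap and were higher in homozygous brains, against 14.8% of 8011 genes, and 0.025% of those genes passed. At an unadjusted p of 0.05, 2 of the 5 were higher, against 2.76% of all genes. In NK-like cells, Ifih1 had 31.9 and 27.4 CPM in the homozygous brains, against 2.42 and 15.6 CPM in the heterozygous ones, where the first value rests on 1 corrected UMI in 37 cells (1.15, SE 0.36, adjusted p = 0.927). Zbp1 had 158 and 146 CPM in the homozygous NK-like cells, against 53.2 and 123 CPM in the heterozygous ones (0.82, SE 0.29, adjusted p = 0.927). These were the 2 of 6 members tested there that did not overlap, against 13.5% of 6299 genes, of which 0.0476% passed, and the same 2 were higher at an unadjusted p of 0.05, against 1.95% of all genes. In T-like cells Dhx58 and Zbp1 were the 2 of 6, at 0.33 and 0.15, against 19.7% of 6524 genes, of which 0.0% passed, and 0 of 6 had an unadjusted p under 0.05, against 4.55% of all genes. Of 15 marker lists, 5 were higher and 0 lower in both homozygous brains in T-like cells. Among the 5 were the monocyte/macrophage markers, at 1344 and 1352 CPM, against 1154 and 1164 CPM in the heterozygous brains. In Krt8-high cells 1 list was higher and 1 lower, and the lists are not given here for NK-like cells. The part of these markers in the members' values was not tested.
Without the first heterozygous brain 4 pairs passed and without the second 7 pairs, in Krt8-high and NK-like cells alone. Without the first, 25.3% of all genes passed in Krt8-high cells, where the 4 pairs lay, and without the second 2.16% passed there and 14.7% in NK-like cells, which held 4 and 3 of the 7 pairs. Zbp1 in Krt8-high cells then took opposite signs, at -0.45 without the first and 0.72 without the second, and Tmem173 was at -0.34 without the first. Not all of these pairs are among the 25 above. Krt8-high cells had 7 members tested without the first and 6 without the second, against 5 with all brains. With all brains Ifih1 and Tmem173, at means of 9.18 and 9.74 CPM there, were under the required 10 CPM. Ifih1 entered in both fits and Tmem173 without the first, through the higher values of the brains that remained.
Over these 4 classes the median log2 fold change of the interferon-stimulated genes was 0.48 in Krt8-high, 0.64 in T-like, 1.08 in NK-like and 0.80 in vascular-like cells, with 1 call in all, Cxcl10 in NK-like cells (log2 fold change 1.55, adjusted p = 0.0224 in limma, also past the threshold with any 1 brain left out, but 0.927 in cells of 5000 to 15000 raw UMIs), and the medians of the other sensing genes were 0.02 to 0.10 with 0 calls.

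**Figure D4:**
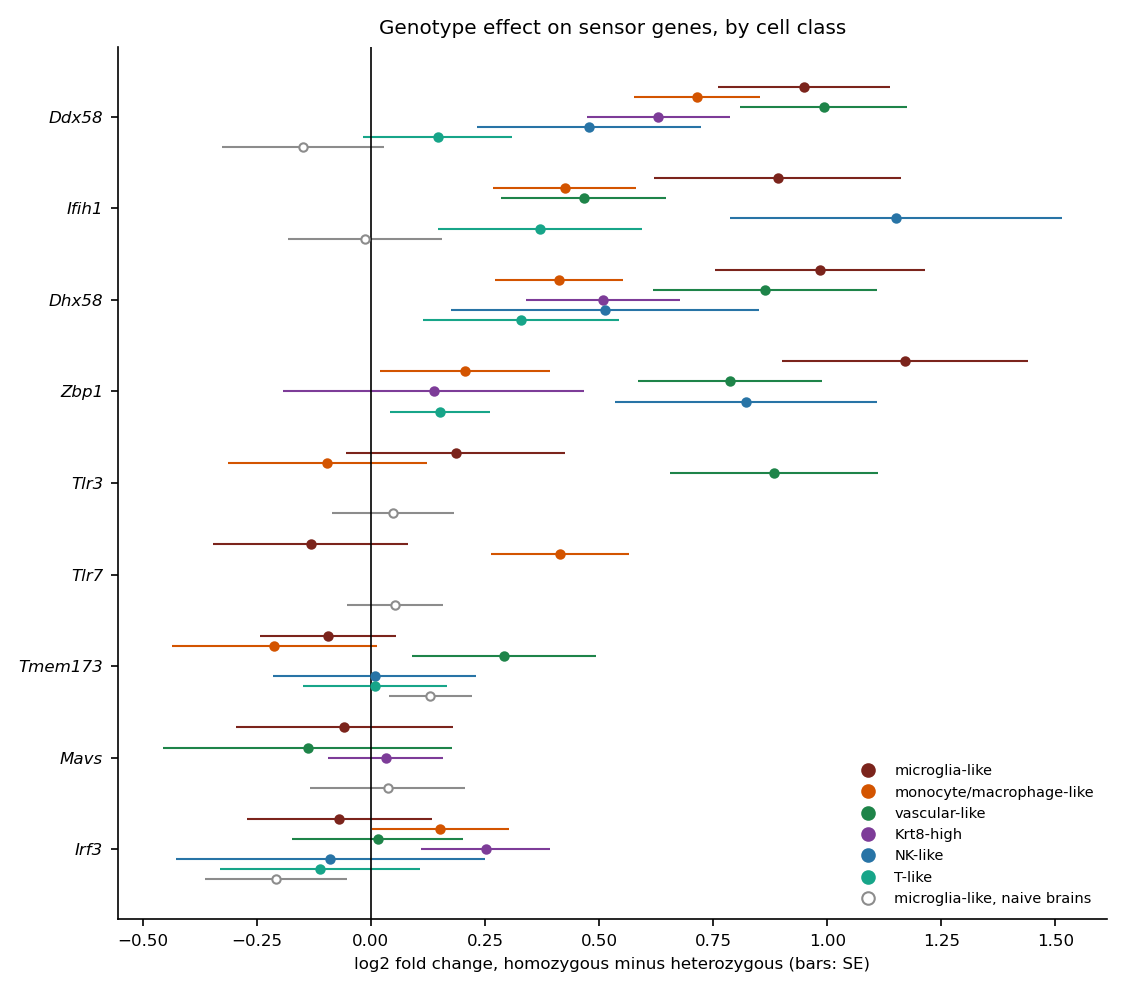
Log2 fold change of homozygous minus heterozygous brains for each sensor gene tested, with bars for the SE, by class in metastasis-bearing brains (filled points) and in naive microglia-like cells (open points). For Ddx58, Ifih1, Dhx58 and Zbp1 the filled points are all right of 0, and none of the points passed the adjusted threshold.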

How the data were processed

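RNA of 8 hashtagged brains was measured in 1 pooled preparation with 3 libraries. Per the submitters' processing notes, Cell Ranger 3.1, Seurat 3.1.1 and mm10 were used. The authors deposited natural log (ln) values of 1 plus a depth-corrected UMI count per gene and cell; the exponential minus 1 was whole in 100% of nonzero values (tolerance 1e-06). The correction was fitted separately in each table. The deposited metadata gave raw UMI counts, clusters, hashtag and genotype per cell.

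Values were turned back to corrected UMIs, summed per brain and class, scaled to 1000000, and tested on log2(CPM + 10) with limma 3.58.1 in R 4.3.3 (trended variance), for genes with a mean above 10 CPM, homozygous minus heterozygous, with Benjamini-Hochberg adjustment over all genes. A fold change on this scale understates the change of low genes. The steps were tested on simulated data. The members, the lists and the marker lists were chosen with earlier results of these data known. All members were named; of the list genes, those past the threshold and the 6 with the smallest p per comparison over both lists, with 1 list gene left out of the named genes and the figures because it is not reported here. The 6 other sensing genes named in metastasis-bearing microglia-like cells, first by p in their own list, go beyond this rule and were chosen after their values were seen. No doublet caller was run; cells were used as deposited. Hashtags mark separate brains and their numbers pair nothing.

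Alternatives were a pseudocount of 1, no filter, median-ratio scaling, no trend, all deposited cells, cells of 5000 to 15000 raw UMIs, the mean of the deposited ln values, the authors' antibody gate, cells with no infiltrating-cell marker, and each brain left out. The gate took every cell with a gate code in metastasis-bearing brains, but only cells coded as microglia in naive brains. In metastasis-bearing brains it gave log2 fold changes of -0.644 for Tmem173 and -0.56 for Tlr7, against -0.09 and -0.13 in microglia-like cells.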

Additional observations from a re-analysis of the deposited data

Results flagged for a closer look

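The genotype effect on Cxcl10, a chemokine induced by interferon, differed between the states in microglia-like cells, by 1.85 on the log2 scale (metastasis-bearing minus naive, adjusted p = 0.0406 in limma's interaction test over all 8 brains). Its genotype effect was 1.81 in metastasis-bearing brains and -0.04 in naive brains. The call held in 4 of 15 alternatives, with an adjusted p from 0.00146 to 0.809. It is no member of the sensor set, and no sensor passed the same test.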

How the results depend on the processing

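With 2 brains per group, no member passed in any of the 5 comparisons with all brains in, under any alternative that kept all 4 or 8 brains. In cells of 5000 to 15000 raw UMIs, Krt8-high sums rested on 1 and 1 cells in homozygous and 3 and 1 in heterozygous brains. The NK-like sum of the first heterozygous brain rested on 8 cells, so that this alternative says little for these 2 classes. No paired analysis was possible because the hashtag numbers mark separate brains and pair none across genotypes. Leaving out 1 brain at a time, the number of members past the threshold ranged from 0 to 1 in metastasis-bearing microglia-like cells, from 0 to 2 in the interaction, from 0 to 2 in monocyte/macrophage-like cells and from 0 to 7 over the other classes; it stayed at 0 in naive brains. In Krt8-high cells, more members were tested without 1 heterozygous brain than with all brains. Under the alternatives that kept all brains, 230 log2 fold changes of members kept their direction and their side of the threshold. Another 15 changed sign, for a cause that was not tested. In metastasis-bearing microglia-like cells these were Mavs at 0.0124 with all deposited cells and 0.0849 without infiltrating-cell markers, Tlr7 at 0.00805 and Irf3 at 0.0158 with the mean of the ln values, Irf3 at 0.0719 and Tmem173 at 0.0883 in cells of 5000 to 15000 raw UMIs, Tmem173 at 0.00532 with the mean of the ln values and 0.0334 without infiltrating-cell markers, and Tlr3 at -0.224 in the authors' gate. In naive microglia-like cells they were Ifih1 at 0.0338 and Irf3 at 0.0131 in the authors' gate, Ifih1 at 0.0172 and Tlr3 at -0.0259 in cells of 5000 to 15000 raw UMIs, and Ifih1 at 0.00131 with the mean of the ln values and 0.0953 without infiltrating-cell markers. Without 1 brain at a time, the signs of 22 further values changed. In metastasis-bearing microglia-like cells the log2 fold changes ran from -0.125 to 0.00926 for Mavs, from -0.339 to 0.075 for Tlr7, from -0.213 to 0.0747 for Irf3, from -0.101 to 0.473 for Tlr3 and from -0.186 to 6.09e-05 for Tmem173; Ddx58 (0.862 to 1.04), Dhx58 (0.789 to 1.18), Ifih1 (0.491 to 1.29) and Zbp1 (0.798 to 1.54) stayed positive. In naive ones they ran from -0.161 to 0.136 for Ifih1, from -0.0906 to 0.165 for Mavs, from -0.362 to 0.0648 for Ddx58 and from -0.000449 to 0.0973 for Tlr3. In the interaction they ran from -0.222 to 0.0327 for Mavs, from -0.392 to 0.0218 for Tlr7, from -0.0514 to 0.328 for Irf3 and from -0.15 to 0.425 for Tlr3. In monocyte/macrophage-like cells they ran from -0.071 to 0.485 for Zbp1, from -0.0187 to 0.322 for Irf3, from -0.429 to 0.238 for Tlr3 and from -0.572 to 0.149 for Tmem173. The class with the highest level stayed the same for 7 of 9 members with all deposited cells (Mavs and Tlr3 moved to choroid plexus-like cells) and for 7 of 9 in cells of 5000 to 15000 raw UMIs (Ddx58 moved to NK-like, Mavs to microglia-like). The alternatives for the other classes and the one without infiltrating-cell markers were chosen after seeing the data. Depth limits the precision where the homozygous metastasis-bearing brains gave 85 and 35 microglia-like cells, with 4 to 34 corrected UMIs of Mavs, Irf3, Tlr3, Dhx58, Ifih1, Ddx58, Tlr7 and Zbp1 in the smaller brain. The mean of the deposited log values per cell, another scale, gave 0.241 for Ddx58, 0.246 for Dhx58, 0.262 for Ifih1 and 0.381 for Zbp1 in metastasis-bearing microglia-like cells.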

Other observations

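In naive brains, an S100a8-high cluster, led by neutrophil and monocyte markers together, had 330 ± 83.0 CPM of Zbp1, 153 ± 30.8 CPM of Ifih1, 109 ± 32.6 CPM of Ddx58 and 88.6 ± 23.6 CPM of Dhx58 (SD, n = 3 brains with at least 20 such cells). Each of these 3 brains lay above every brain of the next class for each of the 4 genes. The brain left out, with 17 such cells, had 20.7 CPM of Dhx58, within the range of the next class (9.89 to 36.9 CPM). Leaving out the shared barcodes took the cluster from 50 and 277 to 17 and 69 cells in homozygous brains. In heterozygous brains it went from 125 and 143 to 44 and 41 cells. The median raw count of the cells kept was 23923 UMIs, and the part of shared barcodes in these levels was not tested. The microglia-like cells of the same table had 3.43 ± 1.14 CPM of Zbp1 and 19.3 ± 2.51 CPM of Ifih1 (SD, n = 4 brains). The levels are descriptions with no test, because the clusters were built from the same cells' genes.

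For Tmem173 and Tlr7 the naive order again had microglia-like cells first, at 236 ± 17.5 CPM and 110 ± 3.76 CPM (SD, n = 4 each). Every microglia-like brain lay above every brain of any other class with at least 20 cells, which B-like cells reached in 1 brain only. A sum of 3 B-like cells in the first homozygous brain, with 5 corrected UMIs of Tmem173, had 225 CPM, above the lowest microglia-like brain, at 216 CPM. For Tlr3, microglia-like cells (49.7 ± 2.46 CPM, SD, n = 4) overlapped a class II-high cluster that mixes dendritic cell and border-associated macrophage markers (41.6 ± 16.7 CPM, SD, n = 3).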
